A study of Mus musculus with 2 samples.

Results

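The genes followed here are 10 transcripts of heart muscle cells, read in droplets that held sorted macrophages: *Myh6*, *Myl2*, *Myl3*, *Actc1*, *Tnnt2*, *Tnni3*, *Ttn*, *Pln*, *Mb* and *Nppa*. They are 10 of the 32285 genes in the deposited matrices and were chosen as genes that cardiomyocytes express and macrophages are not known to make. Their UMIs (molecules, each counted once) were counted in every cell barcode with at least 1000 UMIs, which were 9131 of 10624 barcodes in 1 library and all 8146 in the other. A level below is UMIs of the gene, or of all 10 genes summed, per 10000 UMIs of the barcodes named.

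The barcodes came from mouse hearts 3 days after myocardial infarction (MI). Cells positive for CD45, CD11b and CD64 were sorted from infarct and border zones, and libraries were made with a droplet method that reads the 3′ end of transcripts. One library came from wild-type (WT) mice and 1 from CD40 knockout (KO) mice, and both groups had the infarct, so there is no uninjured heart to compare with. The sources used here do not give the strain, the allele, the age or the number of mice pooled in a library. Each group is 1 library, so the groups have no replicates and were not tested against each other. All intervals are exact, at 95%, and cover counting error only. The *Cd40* transcript stood at 0.178 per 10000 UMIs in WT against 0.183 in the other library, so it does not check the knockout, and that library is called the library labelled CD40 KO.

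Cardiomyocytes contract through the sarcomere, in which thick filaments of myosin pull on thin filaments of actin and the troponins switch that pull on with calcium. Muscle fibres that die after an infarct break up, and macrophages that enter the wound clear the remains by engulfing them, a process named efferocytosis. Broken cells also release RNA into the suspension, and a droplet can take up such RNA with its cell. A UMI of a muscle gene in a macrophage barcode therefore does not show that the macrophage transcribed the gene. *Pln* is also made by smooth muscle.

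The members encode parts of the thick filament, the thin filament and its switch, a spring, a calcium pump inhibitor, an oxygen carrier and a hormone. Positions are from GENCODE vM21 on GRCm38, the assembly that mm10 denotes, and this annotation need not be the authors' own. Of the thick filament genes, *Myh6* (alpha myosin heavy chain) lies on chromosome 14 from 54941921 to 54966927 on the minus strand. *Myl2* (ventricular regulatory light chain) lies on chromosome 5 from 122100951 to 122113472 and *Myl3* (ventricular essential light chain) on chromosome 9 from 110741861 to 110769798, both on the plus strand. Of the thin filament genes, *Actc1* (cardiac alpha actin) lies on chromosome 2 from 114047282 to 114053548 and *Tnni3* (the inhibitory troponin) on chromosome 7 from 4518305 to 4524229, both on the minus strand, and *Tnnt2* (the troponin that holds tropomyosin) on chromosome 1 from 135836354 to 135852260 on the plus strand. *Ttn*, which encodes the giant elastic protein titin, lies on chromosome 2 from 76703980 to 76982547 on the minus strand. *Pln*, which encodes the calcium pump inhibitor phospholamban, lies on chromosome 10 from 53337667 to 53345987 on the plus strand. *Mb*, which encodes myoglobin, lies on chromosome 15 from 77015487 to 77050670 on the minus strand. *Nppa*, which encodes atrial natriuretic peptide, lies on chromosome 4 from 148000722 to 148002079 on the plus strand. Each of these genes except *Actc1* and *Tnnt2* overlaps at least 1 other gene of the matrix in that annotation, for example *Pln* with *Cep85l* on the other strand and *Tnni3* with *Dnaaf3* on the same strand. The sources do not say whether the counting used strand.

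Some members have close relatives, and a read that lies wholly in an identical run cannot tell the 2 genes apart. The last 500 bases of the longest coding transcripts of *Myh6* and *Myh7* share an identical run of 173 bases, longer than in any of the other 7 pairs compared. Counts of *Myh6* are therefore uncertain where reads fall in that run. In the other pairs the longest identical run was 9 to 29 bases. *Actc1* and *Acta1*, the skeletal actin, are 86.3% identical over their coding bases, and the ends of both coding sequences (the last 60 bases before the stop codon, 5′ to 3′, GENCODE vM21 transcripts, bases that differ in capitals) show how far a read there can tell them apart:
*Actc1*: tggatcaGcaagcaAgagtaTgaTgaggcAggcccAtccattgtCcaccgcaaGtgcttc
*Acta1*: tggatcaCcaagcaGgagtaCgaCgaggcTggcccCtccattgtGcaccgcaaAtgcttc
The ends differ at 8 of 60 bases. *Acta1* had 30 UMIs in WT against 23 in the library labelled CD40 KO, beside 298 and 112 of *Actc1*, and *Myh7* had 9 and 1, against 48 and 17 of *Myh6*.

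All 10 members were detected in both libraries, each at a low level. The summed level was 0.211 (0.204 to 0.219) per 10000 UMIs in WT, from 2920 UMIs. The library labelled CD40 KO stood at 0.111 (0.104 to 0.118), from 1002 UMIs. At least 1 member UMI was seen in 1806 of 9131 WT barcodes (19.8%, exact binomial interval 19.0 to 20.6) and in 777 of 8146 barcodes of the other library (9.54%, 8.91 to 10.2). Median depths were 11078 and 5347 UMIs, so these shares also carry depth.

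The light chains and troponin T held the most UMIs, and titin and the myosin heavy chain the fewest. In WT *Myl2* had 602 UMIs, *Tnnt2* 508 and *Myl3* 429. *Mb* followed with 354, *Actc1* with 298, *Tnni3* with 274 and *Pln* with 267. *Nppa* had 90 UMIs, *Ttn* 50 and *Myh6* 48. *Myl2* again led in the library labelled CD40 KO, with 194 UMIs, before *Tnnt2* with 152, *Myl3* with 131 and *Mb* with 125. *Actc1* had 112, *Tnni3* 103, *Pln* 97, *Ttn* 37, *Nppa* 34 and *Myh6* 17. The order of counts was the same in both libraries except that *Ttn* and *Nppa* changed places. In WT the interval of *Myl2* (0.0401 to 0.0471 per 10000) lay just above that of *Tnnt2* (0.0336 to 0.0401), and gaps also separated *Pln* from *Nppa* and *Nppa* from *Ttn*. All other neighbours overlapped, and in the other library only *Pln* and *Ttn* stood apart from each other. These are counts of 3′ ends, which are not scaled by gene length, and they do not rank the genes by molecules per cell.

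Barcodes were put into classes by marker lists: a barcode belonged to a class when that list alone reached a fixed level and at least 3 of its genes were seen. The macrophage class held 6667 WT barcodes and 6632 of the library labelled CD40 KO, with a median of 215 and 229 UMIs of its 12 markers (such as *Csf1r*, *Adgre1* and *C1qa*) per 10000. The median of every other class list in these barcodes was 0, with 2 exceptions: the neutrophil list stood at 2.45 and 9.33, and the fibroblast list at 0.709 in the library labelled CD40 KO. The gate is a range and not a type: in WT 13.8% of barcodes lay within 1.25-fold of a limit, and 11.8% in the other library. WT also held 398 endothelial-gated, 255 neutrophil-gated, 145 fibroblast-gated and 26 mural-gated barcodes. The other library held 10, 71, 58 and 0 of these. Endothelial cells, fibroblasts and mural cells lack CD45, which the sort required. The libraries shared 23 barcode sequences.

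Endothelial-gated barcodes of WT held over 10 times the macrophage level of cardiomyocyte transcripts, mural-gated ones did so only with *Pln* counted, and fibroblast-gated barcodes held less than macrophage-gated ones. In macrophage-gated WT barcodes the summed level was 0.159 (0.152 to 0.167), from 1902 UMIs. It was 2.09 (1.91 to 2.30) in endothelial-gated barcodes, a ratio of 13.1 (11.8 to 14.6) to macrophages, and 2.18 (1.64 to 2.86) in mural-gated barcodes, a ratio of 13.7 (10.2 to 18.0). *Pln*, which smooth muscle also makes, gave 34 of the 53 member UMIs of the mural class. Without *Pln* on both sides the mural level was 0.783 (0.471 to 1.22) against 0.146 in macrophages, a ratio of 5.34 (3.21 to 8.37), and the endothelial ratio was 13.1 (11.8 to 14.6). Fibroblast-gated barcodes stood at 0.100 (0.069 to 0.141), a ratio of 0.630 (0.432 to 0.888). Neutrophil-gated barcodes stood at 0.417 (0.285 to 0.589), a ratio of 2.62 (1.79 to 3.71). The WT intervals of dendritic-gated (0.101), T-gated or NK-gated (0.165) and B-gated barcodes (0.362) were wide, from 5, 4 and 5 member UMIs, and each of their ratios to macrophages had an interval that held 1.

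**Figure D1:**
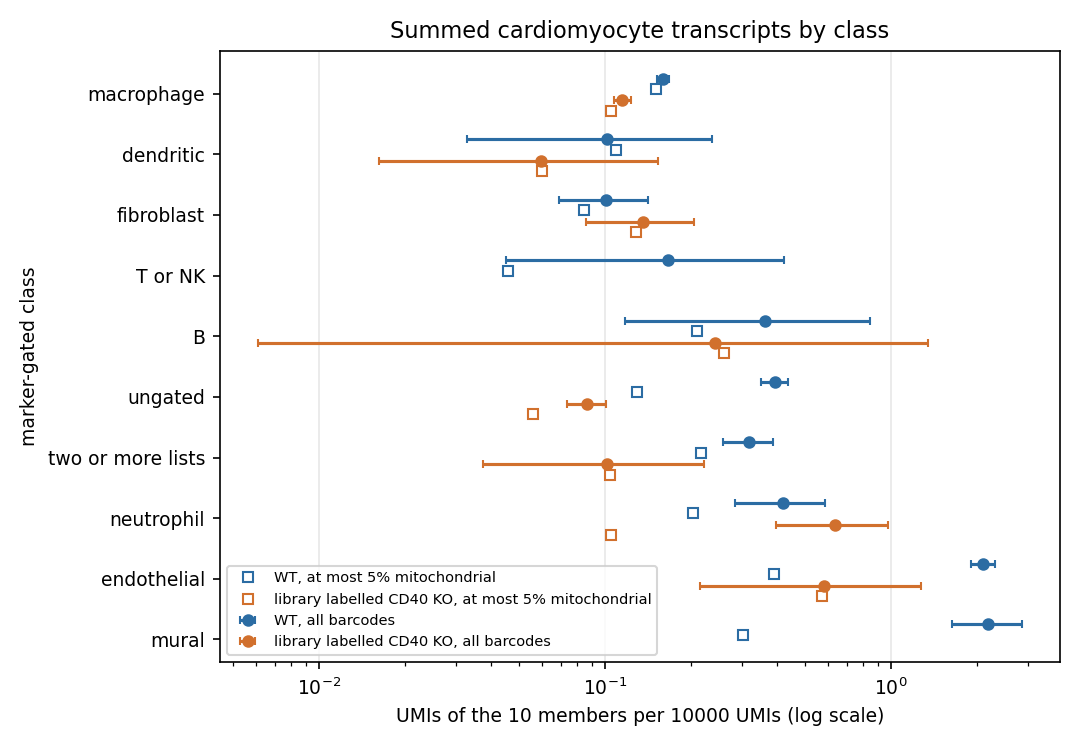
Summed level of the 10 members (UMIs per 10000 UMIs, log scale) in each marker-gated class of WT (blue) and the library labelled CD40 KO (orange). Circles are all barcodes with exact 95% Poisson intervals, and open squares are barcodes with at most 5% mitochondrial UMIs. Classes without a member UMI are not drawn, and the erythroid class of 2 WT barcodes is left out. The WT endothelial and mural classes stand highest at 2.09 and 2.18, and their squares lie at 0.389 and 0.304. Without *Pln* the mural level of all barcodes is 0.783.

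Much of the gap between classes moved with the mitochondrial share of the barcodes. The median mitochondrial share was 11.7% in endothelial-gated WT barcodes, 5.89% in mural-gated and 2.46% in macrophage-gated ones. With at most 10% mitochondrial UMIs the endothelial level was 1.51 (1.31 to 1.72), 9.73 times (8.41 to 11.2) that of macrophages. With at most 5%, only 46 of the 398 endothelial-gated barcodes remained, and the level was 0.389 (0.260 to 0.558), a ratio of 2.59 to macrophages (log2 1.37, 0.79 to 1.90). The mural level was then 0.304 (0.083 to 0.779), from 4 UMIs, and the log2 ratio to macrophages was 1.02 (−0.86 to 2.38). Neutrophil-gated WT barcodes stood at 0.202 (0.105 to 0.354) against 0.150 (0.143 to 0.157) in macrophage-gated ones. Depth differed too: endothelial-gated WT barcodes with 2% to 5% mitochondrial UMIs had a median of 11234 UMIs, against 2757 at 10% to 20%. The endothelial level was 3.77 in barcodes of 1000 to 2000 UMIs and 1.09 in those of 16000 to 32000. The part of depth in these moves was not tested.

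In the library labelled CD40 KO the macrophage level was 0.115 (0.107 to 0.123), from 779 UMIs. Fibroblast-gated barcodes stood at 0.136 (0.086 to 0.204), and their ratio of 1.18 to macrophages had an interval of 0.744 to 1.78. The 10 endothelial-gated barcodes gave 0.583 (0.214 to 1.27), a ratio of 5.07 (1.85 to 11.1). The neutrophil level of 0.637 (0.394 to 0.973) rested on few barcodes: of its 21 member UMIs 8 lay in 6 barcodes with 10% to 20% mitochondrial UMIs and 10 in 2 barcodes with more. Without these the level was 0.0996 (0.0205 to 0.291), a ratio of 0.879 (0.181 to 2.58). No member UMI was seen in 9 T-gated or NK-gated barcodes, which allows a level of up to 0.431 per 10000.

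Thinning each barcode to 1000 UMIs gave the classes the same depth, and in WT this turned the order of macrophages and neutrophils. A member UMI was then left in 1.89% (1.58 to 2.25) of macrophage-gated WT barcodes, against 19.6% before thinning at a median depth of 13697 UMIs. The share in neutrophil-gated WT barcodes was 3.53% (1.63 to 6.59), against 9.80% before thinning at a median depth of 2414 UMIs. In endothelial-gated WT barcodes it was 22.6%, against 44.7% at a median depth of 3075 UMIs. In the library labelled CD40 KO the macrophage share was 1.27% (1.01 to 1.57) after thinning and 9.23% before, at a median depth of 4579 UMIs. The neutrophil share there was 2.82% (0.343 to 9.81) after thinning and 9.86% before, at a median depth of 3069 UMIs, so neutrophils stood above macrophages both times. Neutrophils are not known to make these genes, and their thinned shares rest on 9 of 255 WT barcodes and 2 of 71 in the other library, with intervals that overlapped those of macrophages. The level in that library also changed order: the log2 ratio of macrophages to neutrophils was −2.47 (−3.09 to −1.77) in all barcodes and 0.19 (−1.37 to 2.47) in those with at most 10% mitochondrial UMIs.

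The mixture of members was much the same in macrophages of both libraries and differed in fibroblast-gated and mural-gated barcodes. In macrophage-gated barcodes *Myl2* made up 18.8% of member UMIs in WT against 19.1% in the library labelled CD40 KO. *Tnnt2* made up 18.6% and 16.05%, *Myl3* 15.8% and 13.2%, and *Actc1* 11.4% and 11.04%. *Tnni3* made up 8.94% (7.69 to 10.3) and 12.1% (9.86 to 14.6). *Ttn* made up 1.52% (1.02 to 2.18) and 3.72% (2.51 to 5.30), and was the only member whose intervals did not meet. In endothelial-gated WT barcodes *Myl2* took a larger share, 26.8% (22.7 to 31.1) against 18.8% (17.1 to 20.7) in macrophages. The share of *Actc1* was 7.59% (5.31 to 10.4) against 11.4% (9.96 to 12.9), with intervals that overlapped. Without barcodes of 10 or more member UMIs the macrophage share of *Actc1* was 10.6% (9.25 to 12.2).

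Phospholamban stood apart in mural-gated barcodes and myoglobin in fibroblast-gated ones. *Pln* made up 64.2% of the member UMIs of mural-gated WT barcodes (49.8 to 76.9), against 8.10% (6.91 to 9.41) in macrophages. These UMIs lay in 9 of 26 barcodes with at most 9 in one. The *Pln* level there was 1.40 (0.970 to 1.96) per 10000, against 0.0129 in macrophage-gated and 0.173 in endothelial-gated barcodes. *Mb* gave 14 of 33 member UMIs of fibroblast-gated barcodes in WT, 42.4% (25.5 to 60.8), from 12 barcodes. In the other library it gave 9 of 23, 39.1% (19.7 to 61.5), from 6 barcodes. In macrophages its share was 11.7% and 10.5%. The *Mb* level in fibroblast-gated barcodes was 0.0426 (0.0233 to 0.0715) in WT next to 0.0531 (0.0243 to 0.101) in the other library, against 0.0186 and 0.0121 in macrophages. Of the other members in WT fibroblast-gated barcodes, *Tnnt2* stood at 0.00609 and *Tnni3* at 0.00304, below their macrophage levels of 0.0297 and 0.0142.

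**Figure D2:**
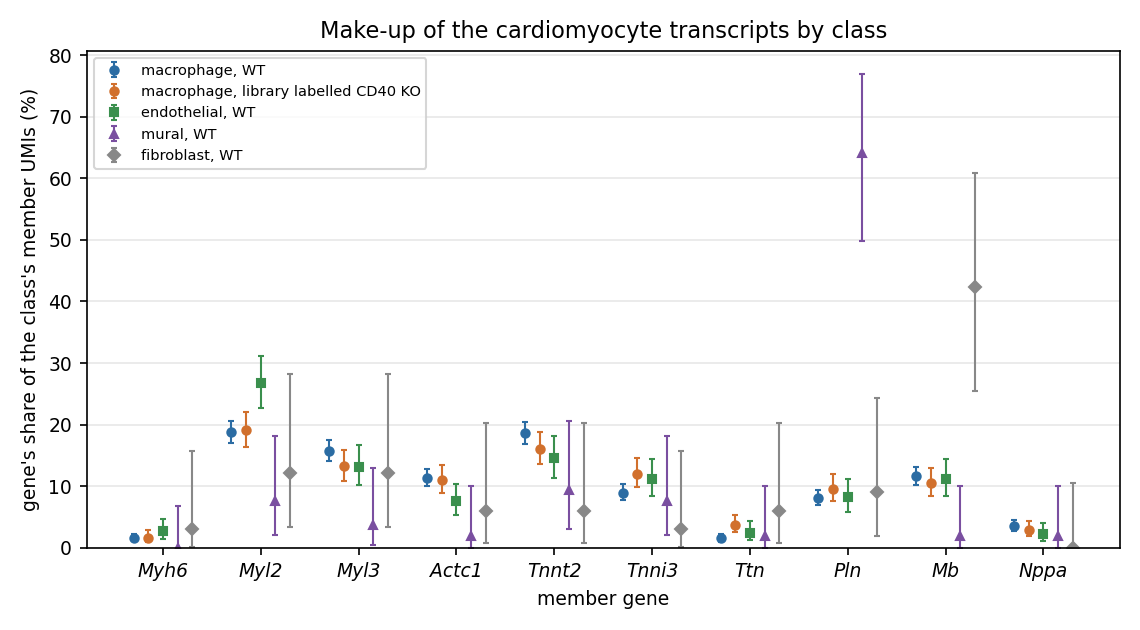
Share of each member gene (x axis) in the member UMIs of a class (y axis, %), with exact 95% binomial intervals, for macrophage-gated barcodes of both libraries and 3 further WT classes. *Pln* reaches 64.2% in mural-gated barcodes and *Mb* 42.4% in fibroblast-gated ones, while the macrophage points of both libraries lie close to each other for most genes.

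Shallow barcodes held far more cardiomyocyte transcript per 10000 UMIs than macrophages. The 1493 WT barcodes of at least 500 and under 1000 UMIs had 343 member UMIs, a level of 3.33 (2.99 to 3.70) and 20.9 times (18.6 to 23.5) that of macrophage-gated barcodes. Of those UMIs 158 (46.1%) lay in 4 barcodes with 10 or more each. Without barcodes of 10 or more member UMIs on both sides the level was 1.80 (1.55 to 2.08) and the ratio 12.1 (10.3 to 14.1). Their median mitochondrial share was 11.3%. With at most 10% mitochondrial UMIs on both sides the ratio was 9.91 (log2 3.31, 2.94 to 3.66), and with at most 5% it was 5.75 (log2 2.52, 1.68 to 3.25). Within the shallow barcodes the macrophage-gated ones stood at 1.36 (1.07 to 1.69), the endothelial-gated at 8.30 (5.47 to 12.1) and the ungated at 5.77 (5.05 to 6.56). *Myl2*, *Tnnt2* and *Myl3* led here too, with 26.2%, 15.2% and 14.3% of member UMIs. The 814 shallowest barcodes (1618 to 2044 UMIs) of the library labelled CD40 KO, which holds none under 1000, stood at 0.208 (0.141 to 0.295), 1.81 times (1.22 to 2.59) its macrophages. These barcodes had been called as cells by the authors' software. Whether each held a cell was not tested, and free RNA in empty droplets was not analysed here.

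Member UMIs were a small share of every barcode. The highest share of member UMIs was 6.63%, in an ungated WT barcode with 58 of 875 UMIs and 31.9% mitochondrial UMIs. It held 17 UMIs of *Myl2*, 11 of *Mb*, 9 of *Myl3*, 8 of *Tnnt2*, 6 of *Actc1*, 4 of *Pln* and 3 of *Tnni3*. Next by share came ungated barcodes with 34 of 567 and 52 of 938 UMIs. The macrophage marker level was 11.4 per 10000 in the first, 70.5 in that of 567 UMIs and 10.7 in that of 938 UMIs, against a gate of 100. Of the barcodes with at least 1000 UMIs and 10 or more member UMIs, the highest member share was 0.523%.

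A pair of macrophage-gated WT barcodes with macrophage marker levels well above the gate held many UMIs of 1 member. One, with 12889 UMIs and a macrophage marker level of 222 per 10000, had 57 member UMIs, of which 48 were *Tnnt2* and 4 *Nppa*, with none of *Myl3*, *Tnni3* and *Pln*. The other, with 31003 UMIs and a marker level of 347, had 56, of which 26 were *Actc1*, 11 *Myl3*, and 5 each of *Tnni3* and *Pln*. Their mitochondrial shares were 2.54% and 2.07%. Another macrophage-gated barcode had 13 member UMIs, and the highest in the library labelled CD40 KO also had 13, of 51342. Of the 354 *Tnnt2* UMIs of all WT macrophages, 48 thus lay in 1 barcode, and the values of *Tnnt2* and *Actc1* below are given with and without such barcodes.

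Most macrophages with a member UMI had exactly 1. In WT 5363 macrophage-gated barcodes had none, 989 had 1, 217 had 2, 76 had 3 or 4, 19 had 5 to 9 and 3 had 10 or more. The numbers in the library labelled CD40 KO were 6020, 511, 71, 24, 5 and 1. Single UMIs made up 52.0% of the member UMIs of WT macrophages and 65.6% in the other library. Of WT barcodes with 2 member UMIs, 80.2% had them from 2 different genes.

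Members tended to share barcodes at like depth. Among macrophage-gated WT barcodes with fewer than 10 member UMIs, 112 of 272 with *Tnnt2* also held another member, 41.2% (35.3 to 47.3). In barcodes without *Tnnt2*, weighted to the same depth bins, 19.9% held a member. For *Tnni3* the shares were 44.9% (37.0 to 53.0) and 22.1%, and for *Actc1* 41.5% (34.1 to 49.1) and 23.1%. *Myl2* had 30.6% (25.6 to 35.99) and 19.1%. The share was higher with the gene than without it for all 10 members in both libraries. The interval with the gene held the value without it for *Myh6*, *Ttn* and *Nppa* in WT, and for these and *Mb* in the library labelled CD40 KO. In that library *Tnnt2* had 25.9% (18.0 to 35.2) and 13.4%, and *Tnni3* 31.8% (22.1 to 42.8) and 13.6%.

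The level in macrophages was higher at a higher mitochondrial share, while in WT the number of member UMIs per barcode was much the same. WT macrophage-gated barcodes with under 2% mitochondrial UMIs stood at 0.112 per 10000, those of 2% to 5% at 0.169 and those of 5% to 10% at 0.365. Barcodes of 10% to 20% stood at 0.773 and those of 20% to 40% at 1.28. Per 100 barcodes the same bins held 24.8, 30.3, 28.7, 25.2 and 24.7 member UMIs, at median depths from 16632 down to 1631 UMIs, and 11 barcodes above 40% held none. Levels in the library labelled CD40 KO were 0.0690, 0.113, 0.157, 0.330 and 1.34, the last 2 from 5 and 8 UMIs. In endothelial-gated WT barcodes the level went from 0.389 in the 2% to 5% bin to 2.72, 3.01 and 4.45 in the 3 bins above it.

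**Figure D3:**
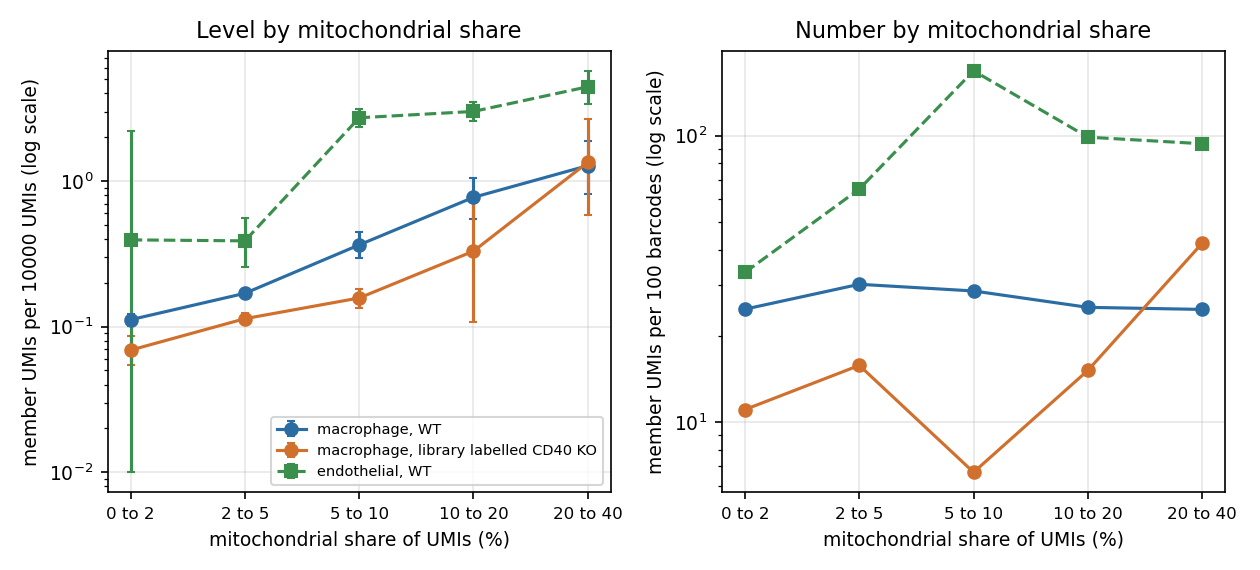
Member UMIs per 10000 UMIs (left, with exact 95% Poisson intervals) and per 100 barcodes (right) against the mitochondrial share of the barcode, both y axes on a log scale. Lines are WT macrophage-gated (blue), macrophage-gated of the library labelled CD40 KO (orange) and WT endothelial-gated barcodes (green). The blue level goes from 0.112 to 1.28 on the left while the blue number stays between 24.7 and 30.3 on the right.

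Deeper macrophage barcodes held more member UMIs, though fewer per 10000. WT macrophage-gated barcodes of 1000 to 2000 UMIs held 6.601 (4.03 to 10.2) member UMIs per 100 barcodes, and those of at least 32000 UMIs held 53.8 (49.1 to 58.7). Per 10000 UMIs the level went from 0.476 to 0.117. With at most 5% mitochondrial UMIs the bin of 1000 to 2000 UMIs stood at 0.066 (from 1 UMI), that of 2000 to 4000 at 0.144 (from 5 UMIs) and that of 4000 to 8000 at 0.146. The next stood at 0.202 (0.185 to 0.219), followed by 0.152 and 0.117 in the deepest bin. The intervals at 1000 to 2000 UMIs (0.0017 to 0.368) and 2000 to 4000 UMIs (0.047 to 0.336) held 0.202, so these shallow bins cannot be ranked against it. The 225 macrophage-gated barcodes under 1000 UMIs with at most 5% mitochondrial UMIs stood at 0.990 (0.554 to 1.63), from 15 UMIs. For the library labelled CD40 KO the number went from 2.71 (1.60 to 4.28) to 49.6 (43.6 to 56.1) per 100 barcodes, and the level from 0.150 to 0.102 by way of 0.188 at 2000 to 4000 UMIs.

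**Figure D4:**
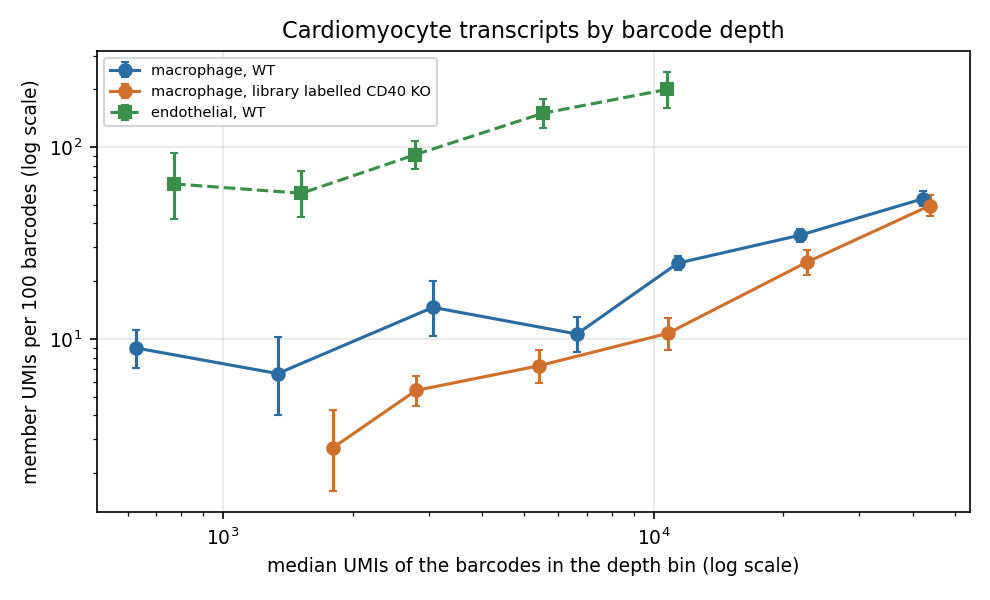
Member UMIs per 100 barcodes against the median depth of the barcodes in each depth bin (both axes log scale), with exact 95% Poisson intervals and only bins of at least 20 barcodes. The macrophage lines of WT and the library labelled CD40 KO end at 53.8 and 49.6 per 100 barcodes in the deepest bin, and the orange line lies below the blue one in every bin from 1000 UMIs. The green line is WT endothelial-gated barcodes.

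Macrophage-gated barcodes held similar levels across the WT clusters, with 3 exceptions. Clusters were made on both libraries without the members, and a cluster could also hold barcodes outside the macrophage gate. Of the 11 clusters with at least 50 WT macrophage-gated barcodes, 8 lay between 0.124 and 0.150: those led by *Thbs1* and *F13a1*, by *Fabp5* and *Gpnmb*, by *S100a9*, by *Plac8*, by *H2-Aa*, by *Ube2c* and *Top2a*, by *Tbc1d4* and *Ccr7*, and a shallow one led by haemoglobin genes. The interferon-response cluster, led by *Ifit3*, stood at 0.206 (0.152 to 0.272). A shallow cluster led by *Gm26917* and *Lars2*, with a median mitochondrial share of 13.1%, stood at 0.540 (0.386 to 0.735). The cluster led by *Mir99ahg* and *Tanc2* stood at 1.08 (0.888 to 1.31), and at 0.390 (0.276 to 0.535) without its 2 barcodes with 10 or more member UMIs. As whole clusters, those led by *Gm26917* and by *Tbc1d4* and *Ccr7* did not count as macrophage clusters. Their highest median marker level, relative to its gate limit, was 0.74 (macrophage list) and 0.46 (dendritic list). For these clusters the levels describe only their macrophage-gated barcodes. In the library labelled CD40 KO the 4582 macrophage-gated barcodes of cluster 1, led by *Apoe*, *Crip1* and *Mt1*, stood at 0.139 (0.123 to 0.157). The others ranged from 0.0532 in the *H2-Aa* cluster (from 8 UMIs) to 0.217 in the *Gm26917* cluster (also from 8 UMIs).

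Macrophage-gated barcodes of the library labelled CD40 KO held less cardiomyocyte transcript than those of WT. The question that the study's design puts is whether CD40 changes the macrophages of the infarct, and the members show here how much muscle RNA each library's macrophage barcodes carried. The summed level was 0.159 in WT against 0.115 in the library labelled CD40 KO, a ratio of 0.722 (0.663 to 0.785) and a log2 ratio of −0.47 (−0.59 to −0.35). Of the 10 members 9 had a lower level there, a count for which the share over all genes was not computed. At least 1.5-fold lower were 4 members. *Tnnt2* was among them, but its ratio was 0.728 without barcodes of 10 or more member UMIs, short of 1.5-fold. By the 1.5-fold rule 5.38% of 16749 genes with at least 20 UMIs were lower, and 8.17% of those with 20 to 600 UMIs, the range that holds the members. At least 1.5-fold higher were 1 of 10 members and 20.2% of all genes. The median log2 ratio was −0.48 over the members, 0.06 over all genes and 0.38 over genes of 20 to 600 UMIs.

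By role, the light chain *Myl2* of the thick filament stood at 0.0300 in WT against 0.0220 in the other library (log2 −0.45, −0.73 to −0.17), and *Myl3* at 0.0251 and 0.0152 (−0.73, −1.06 to −0.40). *Myh6* went from 0.00260 to 0.00192, from 31 and 13 UMIs, with an interval that held 0. In the thin filament *Tnnt2* went from 0.0297 to 0.0185 (−0.68, −0.99 to −0.39) and *Actc1* from 0.0181 to 0.0127 (−0.51, −0.89 to −0.14). *Tnni3*, the partner of *Tnnt2* in the troponin complex, was level over all macrophage-gated barcodes, at 0.0142 and 0.0139 (−0.04, −0.42 to 0.33). Without the barcodes of cluster 1 *Tnni3* had −0.43 (−0.91 to 0.03). *Mb* went from 0.0186 to 0.0121 (−0.62, −1.003 to −0.25) and *Nppa* from 0.00570 to 0.00340 (−0.75, −1.50 to −0.05). *Pln* stood at 0.0129 and 0.0111 (−0.22, −0.64 to 0.19). *Ttn* alone was higher, at 0.00428 against 0.00243 in WT, from 29 UMIs in each (0.82, 0.02 to 1.61). Without the barcodes of 10 or more member UMIs *Tnnt2* had −0.46 (−0.77 to −0.15) and *Actc1* −0.37 (−0.76 to 0.01), *Nppa* had −0.64 (−1.39 to 0.07), and the sum had −0.40 (−0.52 to −0.27). With at most 10% mitochondrial UMIs *Ttn* had 0.76 (−0.04 to 1.56), so its interval then held 0.

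**Figure D5:**
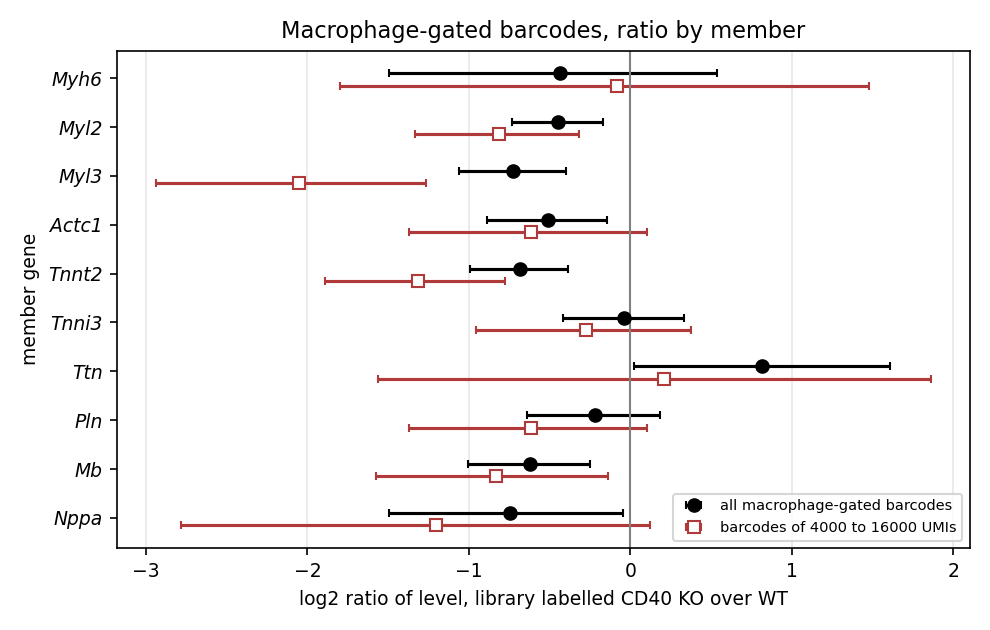
Log2 ratio of each member's level in macrophage-gated barcodes, with the library labelled CD40 KO set over WT and exact 95% intervals. Black circles are all barcodes and red squares barcodes of 4000 to 16000 UMIs. *Ttn* lies at 0.82 and *Tnni3* at −0.04, the other circles lie between −0.75 and −0.22, and *Myl3* moves most between both settings, to −2.05.

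The size of the difference between libraries varied with depth and with 1 cluster. The ratio was 0.314 in barcodes of 1000 to 2000 UMIs, 0.387 at 2000 to 4000, 0.783 at 4000 to 8000, 0.445 at 8000 to 16000, 0.707 at 16000 to 32000 and 0.868 above. The interval held 1 at 4000 to 8000 UMIs and in the deepest bin. Within barcodes of 4000 to 16000 UMIs the ratio was 0.528, and 0.587 without barcodes of 10 or more member UMIs. Without cluster 1, which held 4582 of the 6632 macrophage-gated barcodes in the library labelled CD40 KO but only 25 in WT, the ratio was 0.661 (0.598 to 0.729), with *Nppa* at −1.33, *Tnnt2* at −0.90 and *Ttn* at 1.30 on the log2 scale. Median mitochondrial shares of the macrophages were 2.46% in WT and 4.57% in the other library. Genes of other cell types in the same barcodes did not all move the same way. Endothelial markers had a ratio of 0.521 (0.479 to 0.566), B cell markers 0.844, neutrophil markers 0.963 and mural markers 1.01. Haemoglobin genes had 1.48, dendritic markers 1.58 and fibroblast markers 4.67 (4.48 to 4.87), the last at 3.16 per 10000 within cluster 1 and 0.454 outside it. The part that depth, cluster 1, the mitochondrial share and endothelial RNA have in the lower member level was not tested. Fewer barcodes with such RNA and less of it per barcode cannot be told apart from the sum.

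Other genes of heart muscle were read in macrophage-gated barcodes with at least 3 member UMIs (98 in WT, 30 in the other library), against those with none at the same depth. A gene was counted when it was at least 2-fold higher, which 2.13% of 12184 genes with at least 100 UMIs reached in WT and 2.12% of 11586 in the other library. Of 12 further sarcomere genes 4 had 100 UMIs in WT macrophages, and 2 of these were at least 2-fold higher. These were *Tnnc1*, cardiac troponin C, with 22 UMIs where 4.22 were expected (log2 2.14), and *Xirp2*, an actin-binding repeat protein, with 14 where 1.94 were expected (2.35). In the library labelled CD40 KO *Tnnc1* had 1.995, from 8 UMIs, and *Xirp2* 2.56, from 9 UMIs. Among sarcomere genes below 100 UMIs, *Myoz2*, a protein of the Z disc, had 19 against 1.09 in WT (3.26) and *Csrp3*, a muscle LIM protein, 15 against 1.12 (2.92). In the other library they had 2 and 1 UMIs and log2 values of 1.05 and 0.46. *Myoz2* and *Csrp3* had the highest WT values of the sarcomere genes below 100 UMIs. Of all 12 at any count, 7 were at least 2-fold higher in WT, some of them from 2 or 3 UMIs, and 4 in the library labelled CD40 KO. Since 1 UMI was added to observed and expected values, a gene with under 1 expected UMI could not come out 2-fold lower. Genes 2-fold lower at any count are therefore not counted. The share over all genes was not computed below 100 UMIs, so the counts of 7 and 4 have no background beside them. Without the 3 WT barcodes with 10 or more member UMIs *Tnnc1*, *Xirp2*, *Myoz2* and *Csrp3* had 1.45, 1.93, 2.13 and 2.26.

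The most abundant further sarcomere genes did not follow the members. *Mybpc3*, cardiac myosin binding protein C, had 474 UMIs in WT macrophages and a log2 value of 0.12, and *Myom1*, a protein of the M line, had 0.09. In endothelial-gated WT barcodes *Mybpc3* stood at 0.00935 per 10000, from 2 UMIs, below its macrophage level of 0.0397. Of 3 sarcomere genes with 100 UMIs in the other library 1 was 2-fold higher, *Tnnc1*, and 1 was 2-fold lower, *Mybpc3*, at −1.17 from 4 UMIs. *Mybpc3* stood higher in macrophages of the library labelled CD40 KO, at 0.0683 against 0.0397 per 10000 (0.78), where most members were lower. Of 7 calcium handling genes 2 had 100 UMIs and neither was 2-fold higher. *Slc8a1*, the sodium calcium exchanger, stood at 3.36 per 10000 in WT macrophages and *Atp2a2*, the calcium pump that phospholamban inhibits, at 1.51, both far above any member, with log2 values of 0.06 and 0.03. Fibroblast-gated WT barcodes held them at 2.62 and 1.87, and endothelial-gated ones at 0.229 and 1.09. Of 12 energy and stress protein genes 7 had 100 UMIs in WT and 1 was 2-fold higher, *Cryab*, a small heat shock protein, with 88 UMIs against 11.8 expected (2.80). It had 1.71 without the barcodes of 10 or more member UMIs, and 1.98 in the library labelled CD40 KO. *Cryab* was also at 1.92 per 10000 in fibroblast-gated and 3.05 in mural-gated WT barcodes, against 0.0539 in macrophages. *Fabp3*, a fatty acid carrier, had 0.18, and like most members it stood lower in macrophages of the library labelled CD40 KO, at 0.0955 against 0.155 per 10000.

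Most genes of the atrium and of stressed heart muscle were sparse. *Sln* had no UMI in either library and *Myl7* had 0 in WT and 1 in the other, while *Myl4* and *Stard10* had log2 values of 0.48 and 0.53 in WT. In the other library *Myl4* had 0.49, from 2 UMIs, and *Stard10* −1.30, from 0 UMIs where 1.47 were expected. Of 6 genes of stressed heart muscle none had 100 UMIs in macrophages. *Ankrd1*, a stress-responsive repeat protein, had 7 UMIs against 1.18 expected in WT, a log2 value of 1.87. Of 8 skeletal muscle genes 2 had 100 UMIs in WT, *Tnni2* and *Mylpf*, with values of 0.13 and 0.75, both short of 2-fold. *Tnni2*, troponin I of fast skeletal muscle, was not sparse: it had 1127 UMIs in WT macrophages (0.0944 per 10000) against 866 in the other library (0.128), more than any member. In endothelial-gated and fibroblast-gated WT barcodes *Tnni2* stood lower, at 0.0047 and 0.0091, from 1 and 3 UMIs, while the summed members were highest in endothelial-gated and mural-gated ones.

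Over all genes with 100 UMIs in each library, those most like the members by the smaller of both libraries' log2 values (WT given first) were headed by a pair of muscle genes and went on with genes of other kinds. *Tnnc1* came first, with 2.14 and 1.995, and *Cryab* next with 2.80 and 1.98. The sarcomere gene *Xirp2*, with 2.35 and 2.56, was not ranked because it had 64 UMIs in the library labelled CD40 KO. *Hpgd*, a prostaglandin-degrading enzyme, had 1.96 and 2.90, *Ccn1*, a matrix protein, 1.97 and 1.45, and *Mgl2*, a lectin of macrophages and dendritic cells, 1.36 and 2.51. *Cobll1* had 2.25 and 1.17. The rest of the first 10, *Fndc5*, *Slc39a12*, *Hsh2d* and *Mkln1os*, lay between 1.16 and 1.83. These values rest on 98 and 30 barcodes, and for *Ccn1* on 27 and 8 UMIs. The place of the muscle genes rested on 3 WT barcodes and 1 of the other library that had 10 or more member UMIs. Without them *Hpgd* came first with 1.95 and 2.95, before *Ccn1* with 1.98 and 1.49. *Tnnc1* then had 1.45 and 1.86, and *Cryab* 1.71 and 1.09, which placed it last of these 10 genes.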

How the data were processed

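Raw UMI counts per gene and barcode were deposited by the authors as 1 matrix per library, and the file headers give Cell Ranger 7.0.1. Cell Ranger, STAR and mm10 are named in the submitters' processing notes. The sources used here do not say whether intronic reads were counted. WT held 10624 barcodes and 139343516 UMIs, and the library labelled CD40 KO 8146 and 90057108. The shallowest barcode had 500 and 1618 UMIs. Barcodes with more than 10% mitochondrial UMIs were 11.3% and 2.65% of those kept.

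Counts were summed over barcodes. Levels have exact Poisson intervals, shares exact binomial (Clopper-Pearson) intervals and ratios exact conditional intervals, all at 95%. A level beside a count of 0 is that of 3 UMIs. No test was made, since each group is 1 library. A class needed at least 3 distinct markers of its list and, per 10000 UMIs, at least 100 UMIs of the macrophage, neutrophil or erythroid list, 64 of the fibroblast list, 32 of the endothelial or mural list, 16 of the T and NK or B list, or 8 of the dendritic list. Barcodes past 2 or more limits, or none, were kept apart. The limits were set after the levels of the lists had been seen, and the members and lists were chosen with earlier results of these data known. Doublets were not removed. As an alternative 667 and 531 barcodes with the highest Scrublet scores (0.8% per 1000 barcodes) were left out. Both libraries were clustered without the members (2000 variable genes, 30 principal components, 15 neighbours, Leiden resolution 0.6), which gave 19 clusters. Expected UMIs in barcodes with at least 3 member UMIs came from barcodes with none in 6 depth bins, and 1 UMI was added to observed and expected values. On simulated WT counts of 12191 genes, genes raised 2-fold and 4-fold came out at medians of 1.997 and 3.99. All raised genes had at least 2000 UMIs, and 48% of those raised 2-fold passed the 2-fold rule. The step was therefore not checked on raised genes with fewer UMIs. Named genes were the members, the 2 genes with the most UMIs of each companion list, and the 10 genes most like the members. *Xirp2*, *Myoz2*, *Csrp3*, *Sln*, *Myl7*, *Myh7*, *Acta1* beside *Actc1*, *Cox7a1* and *Cox6a2* were named after their values were seen. Clustering used scanpy 1.11.5, igraph 0.11.9 and scikit-learn 1.9.0, intervals scipy 1.17.1, tables pandas 2.3.3 with numpy 2.4.6, and figures matplotlib 3.10.9, under Python 3.11.15.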

Additional observations from a re-analysis of the deposited data

How the results depend on the processing

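No paired analysis was possible because each group has 1 library. Of the values recomputed for the main results, 64 moved by less than their counting interval, 27 moved by more and 1 changed direction. The settings at most 5% mitochondrial UMIs, without cluster 1, without *Pln*, and 4000 to 16000 UMIs combined with leaving out barcodes of 10 or more member UMIs were chosen after seeing the data. The summed macrophage level in WT was 0.167 without the highest Scrublet scores, 0.205 as a mean over barcodes, 0.149 without barcodes of 10 or more member UMIs, 0.128 without the 1% of barcodes with the most, 0.129 without *Myl2* and 0.150 at most 5% mitochondrial. In the library labelled CD40 KO it was 0.1065 with classes by Leiden clusters, 0.1425 as a mean over barcodes, 0.0881 without the top 1%, 0.0930 without *Myl2*, 0.1045 at most 5% mitochondrial and 0.1053 without cluster 1. The log2 ratio of that library to WT was −0.92 within 4000 to 16000 UMIs, −0.77 there without barcodes of 10 or more member UMIs and −0.60 without cluster 1, and below 0 under all 14 alternatives (−0.92 to −0.40). The log2 ratio of macrophages to neutrophils in the library labelled CD40 KO reversed to 0.19 at most 10% mitochondrial and was −0.0053 at most 5%, where WT had −0.43. Fewer member UMIs, 3 in neutrophils, were left there. The log2 ratio of shallow barcodes to macrophages in WT was 3.31 at most 10% mitochondrial, 2.52 at most 5%, 3.93 as a mean over barcodes, 3.60 without barcodes of 10 or more member UMIs, 3.44 without the top 1% and 3.88 with the shallowest 1062 barcodes. The log2 ratio of endothelial-gated to macrophage-gated WT barcodes ran from 1.37 to 3.89 over 12 alternatives. Shares of macrophage barcodes with a member UMI were 4.56% and 3.88% after thinning to 3000 UMIs, 1.47% in WT at most 5% mitochondrial and 0.976% in the library labelled CD40 KO without cluster 1. No value was computed for thinned shares from 500 UMIs, as means or without *Myl2*, nor for the shallow ratio with Scrublet, Leiden classes or without cluster 1. Causes of these moves were not tested. Of the single members, *Ttn* was above 0 and the others below 0 under every alternative run, all of which draw on the same barcodes. The intervals of *Myh6* and *Tnni3* held 0 under every alternative, and that of *Pln* under most. That of *Ttn* held 0 at most 10% and at most 5% mitochondrial, without the top 1% and within 4000 to 16000 UMIs, among others. With 1 library per group, no value separates CD40 from library effects, and single members of under 100 UMIs have wide intervals.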

Other observations

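The levels of cardiomyocyte transcripts were set beside genes by which macrophages bind and digest dying cells. Macrophage-gated barcodes were split into 3 equal parts by the summed level of 25 receptors and bridging proteins for dying cells, such as *Mertk*, *Axl* and *Trem2*, a list that shares *C1qa*, *C1qb* and *C1qc* with the gate. From the lowest to the highest part the member level in WT was 0.146, 0.139 and 0.194 per 10000. Without barcodes of 10 or more member UMIs the highest part was at 0.163 (0.151 to 0.176), which overlapped the lowest (0.133 to 0.161). The parts of the library labelled CD40 KO stood at 0.0953 (0.0843 to 0.107), 0.122 (0.107 to 0.139) and 0.136 (0.120 to 0.153), where the highest did not overlap the lowest. Median mitochondrial shares of those 3 parts were 3.72%, 4.94% and 4.55%, against 2.48%, 2.42% and 2.50% in WT.

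By 14 phagosome and lysosome genes the parts stood at 0.199, 0.136 and 0.157 in WT and at 0.111, 0.123 and 0.113 in the other library. By the neutrophil list they stood at 0.171, 0.160 and 0.151, and at 0.106, 0.132 and 0.124. Without barcodes of 10 or more member UMIs, the WT parts stood at 0.176, 0.136 and 0.144 by the phagosome and lysosome genes. By the neutrophil list the WT parts were then 0.149, 0.146 and 0.151. In the other library only the lowest parts changed, to 0.1065 and 0.103. Median depths of the parts ran from 9922 to 17216 UMIs in WT and from 3453 to 13302 in the other library, and the part that depth and the mitochondrial share have in these values was not tested.

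*Cox7a1*, a mitochondrial respiratory subunit of heart and muscle, also went against the members: its level in macrophage-gated barcodes was 2.73 times (2.40 to 3.11) as high in the library labelled CD40 KO. *Cox6a2*, from the same list of energy and stress protein genes, went with most members, at 0.629 times (0.519 to 0.759) the WT level. Both genes were chosen after their values were seen.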
